A study of Drosophila melanogaster with 20 samples.

Results

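The cytosolic ribosomal proteins are the protein parts of the ribosomes that translate nuclear messenger RNAs. They were followed in arrays of the adult Drosophila melanogaster brain as the probe sets whose single annotated gene symbol begins with RpL or RpS and a digit, or with RpLP. By this rule 47 of 18769 probe sets were members, and they stood for 41 of 11981 named genes. The large subunit had 18 probe sets of 16 genes, the stalk of the large subunit 3 probe sets of 3 genes and the small subunit 15 probe sets of 11 genes. A further 8 probe sets belonged to 8 genes that are second copies or relatives of a ribosomal protein gene, and 3 belonged to the -like genes RpL24-like, RpL7-like and RpLP0-like. Such a name is carried by 92 genes of the reference annotation, and the 51 without a member probe set were not analysed here. RpL3 and RpS29 had 3 probe sets each, RpS7 and RpS30 had 2 each, and every one of them is shown. No gene name was taken from the 3 probe sets that list a ribosomal protein symbol among several.

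The study measured 20 samples, 5 in each of 4 groups, on Affymetrix arrays. Surface glia were cells sorted for green fluorescent protein (GFP) from the 9.137 line, all glia from REPO flies and neurons from ELAV flies, with 10 to 15 brains a replicate. Whole brains came from Canton S wild-type flies with 5 brains a replicate. Males and females were mixed in every group, and the replicates came from separate bottles and separate days. Brains of the 3 sorts were dissociated at 37 °C with collagenase and DNase, shaken for 5 min at 500 rpm in the case of surface glia. The other two sorts were shaken for 20 min, all glia at 500 rpm and neurons at 1000 rpm. Flies were kept at a low temperature or at room temperature, and RNA of all groups was amplified before labelling. Each sort has its own fly line and its own dissociation, and neither can be told apart from cell type. Against whole brain every sort also differs in line, in number of brains and in having been sorted. These cannot be told apart from cell type there. The labels do not say whether whole brains were dissociated as the sorted brains were. In these bulk samples fewer cells of a type and less RNA per cell cannot be told apart either. A level below is the deposited log2 value, so that 1 unit is a 2-fold difference, and a difference is the first group named minus the second.

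In a ribosome the small subunit reads the messenger RNA and the large subunit joins the amino acids. The stalk proteins RpLP0, RpLP1 and RpLP2 bring the elongation factors to the ribosome. Most subunit proteins are needed in equal amounts, and flies that lose one gene copy of many of them show the Minute traits of slow growth and short bristles. The reference annotation gives a Minute synonym for 7 of the 41 genes, which are RpL32, RpL37A, RpLP1, RpS18, RpS21, RpS26 and RpS29. The 41 genes lie on chromosome arms 2L (9 genes), 2R (10), 3L (5) and 3R (14) and on chromosome X (3). They are short, with a median length of 1073 bases including introns, against 2263 bases over 11893 named genes.

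The sorted samples differed from whole brain in more than their ribosomal proteins. Arrays within a group correlated at 0.781 to 0.896 in surface glia, 0.763 to 0.937 in all glia, 0.966 to 0.978 in neurons and 0.993 to 0.997 in whole brain, and all glia replicate 4 and surface glia replicate 4 stood apart from their groups. Background, taken as the 95th percentile of 44 negative controls on each array, averaged 5.23 in surface glia, 5.15 in all glia, 4.39 in neurons and 3.72 in whole brain. Control probe sets at the 3′ end of eIF-4a stood above those at its 5′ end, a gap that is wider in shorter RNA, by 4.06 ± 0.32 (SD, n = 5) in surface glia, 4.24 ± 1.36 in all glia, 4.96 ± 0.47 in neurons and 2.25 ± 0.23 in whole brain. The same gap for GAPDH was 3.65 ± 0.65 in surface glia, 4.28 ± 0.62 in all glia, 4.52 ± 0.53 in neurons and 3.22 ± 0.15 in whole brain, with surface glia (2.92 to 4.59) overlapping whole brain (3.03 to 3.35). The part of these values in the results was not tested. The mean level of 8 surface glia markers was 10.40 to 11.34 over surface glia arrays, 7.61 to 9.85 in all glia, 4.04 to 4.62 in neurons and 8.29 to 8.66 in whole brain, where Gli was within the controls in each sort and Indy in neurons. The mean of 7 neuronal markers was 10.44 to 12.16 in surface glia, 11.84 to 12.37 in all glia, 12.20 to 12.47 in neurons and 12.34 to 12.46 in whole brain, so neuronal transcripts were high in both glial sorts too. The 5 markers of astrocyte-like and ensheathing glia averaged 6.05 to 6.91 in surface glia, 5.88 to 7.46 in all glia, 5.74 to 6.56 in neurons and 10.57 to 11.15 in whole brain, with Gat within the controls in both glial sorts, although both of these types are glia. The 7 fat body markers averaged 7.46 to 8.59 in surface glia, 6.97 to 7.72 in all glia, 5.82 to 6.12 in neurons and 6.14 to 6.81 in whole brain. Fbp1 was within the controls in surface glia, all glia and whole brain, and Lsp2 in all glia, neurons and whole brain. Yp1, Yp2, Yp3 and Lsp2 had higher means in surface glia than in whole brain. Apoltp (5.76 against 6.62) and apolpp (8.27 against 10.97) went the other way. The 7 hemocyte markers averaged 6.40 to 7.17 in surface glia, 5.88 to 6.66 in all glia, 5.06 to 5.29 in neurons and 4.93 to 5.52 in whole brain, with He within the controls in each group. Hml was within them in neurons, and srp in neurons and whole brain. Hml, NimC1, srp and eater had higher means in both glial sorts than in neurons. Pxn was at 10.51 in surface glia, 9.85 in all glia and 10.60 in neurons, and crq at 8.24, 7.07 and 7.97. The 4 muscle markers averaged 4.87 to 9.23 in surface glia (median over arrays 5.60), 4.55 to 5.51 in all glia, 3.95 to 4.32 in neurons and 3.55 to 4.14 in whole brain. Of these, up was within the controls in all glia, TpnC73F in neurons, and Mlc2 in neurons and whole brain. These averages lay near the background of their groups in most cases. The part of other cell types in the results below was not tested.

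Most ribosomal protein transcripts had lower levels in each sort than in whole brain, and among the sorts most had their highest mean in surface glia. The median over the 47 probe sets was 10.30 ± 0.28 (SD over 5 arrays) in surface glia, 9.62 ± 0.20 in all glia, 9.36 ± 0.21 in neurons and 11.54 ± 0.06 in whole brain. By array this median was 10.09 to 10.78 in surface glia, 9.28 to 9.77 in all glia, 9.04 to 9.58 in neurons and 11.46 to 11.62 in whole brain. The ranges of whole brain and surface glia overlapped with no other group, and those of all glia and neurons overlapped. The median over all probe sets moved little beside it, at 5.78 ± 0.14 in surface glia, 5.80 ± 0.18 in all glia, 5.64 ± 0.04 in neurons and 5.78 ± 0.02 in whole brain. Whole brain had the highest mean for 32 of the 47 probe sets and neurons the lowest for 30. The full order of whole brain over surface glia over all glia over neurons held for 21 probe sets, each of a subunit gene. The members varied less within groups than other probe sets did in surface glia (median SD 0.37 against 0.58 over all probe sets), all glia (0.41 against 0.59) and whole brain (0.09 against 0.15), and slightly more in neurons (0.32 against 0.27).

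**Figure D1:**
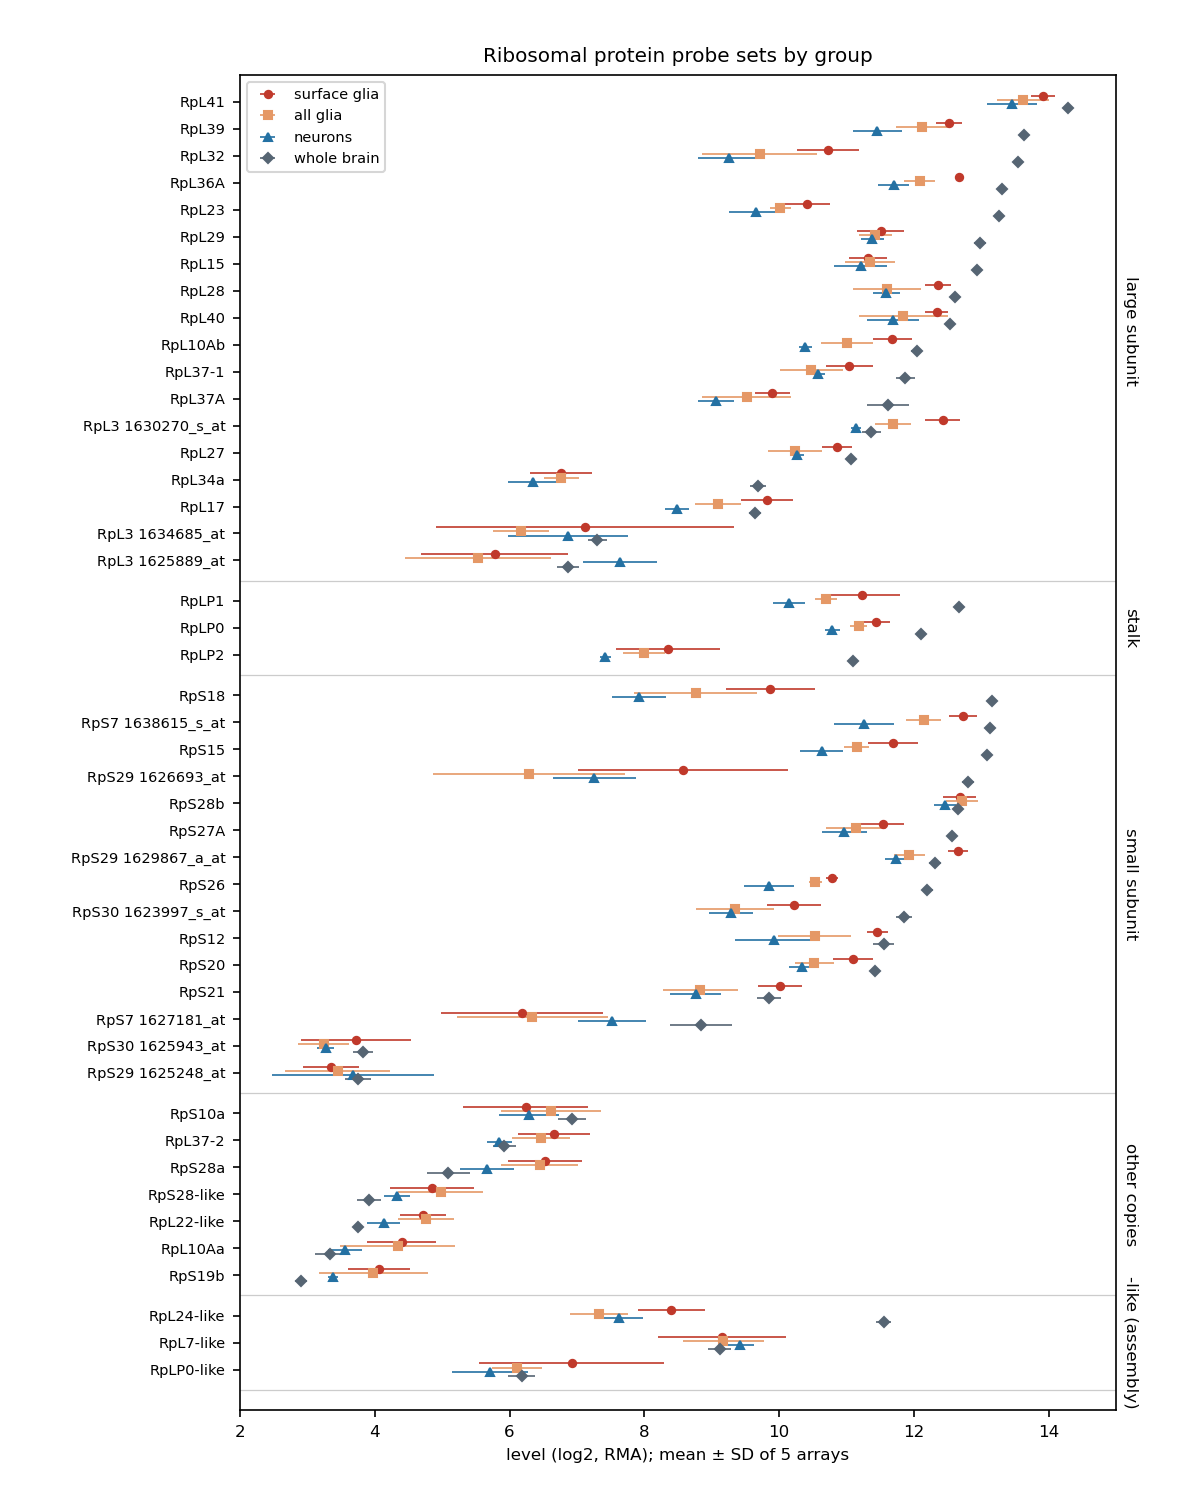
Level of the ribosomal protein probe sets named in the text (rows, by role) in surface glia, all glia, neurons and whole brain. The x axis is the deposited log2 value, points are means and bars are SDs of 5 arrays. Whole brain has the highest mean in 32 rows, while the second copies lie at low levels in all 4 groups.

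Calls were made with limma over all 18769 probe sets, at an adjusted p (Benjamini-Hochberg) below 0.05 with a difference of 1 or more. Between surface glia and all glia 3 members were higher and 0 lower, where 2.46% of all probe sets were called higher and 2.29% lower. At an unadjusted p under 0.05 limma gave 19 members higher and 0 lower there, against 8.79% and 9.22% of all probe sets. Those 2 groups had the widest spread, and in a fit of them alone limma called 0 members, and 22 probe sets higher and 6 lower in all. Between surface glia and neurons 12 members were higher and 2 lower, against 10.5% and 15.0% of all probe sets, so the members' calls ran mostly upward and those of the whole table did not. Between surface glia and whole brain 4 were higher and 17 lower, against 31.6% and 19.4%. Between all glia and neurons 0 were higher and 1 lower, against 3.18% and 4.35%, and at an unadjusted p under 0.05 limma gave 18 higher and 2 lower, against 28.0% and 11.9%. The counts of calls in all glia against neurons are near the background. Between all glia and whole brain 5 were higher and 24 lower, against 24.7% and 14.8%. Between neurons and whole brain 0 were higher and 26 lower, against 3.79% and 9.85%, and at an unadjusted p under 0.05 limma gave 0 higher and 31 lower, against 23.3% and 15.6%. The 6 comparisons share their groups, so they are not independent of each other.

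Medians over the members gave the same picture against whole brain. The median difference was 0.41 for surface glia minus all glia (0.05 over all probe sets), 0.77 for surface glia minus neurons (0.36) and −0.39 for surface glia minus whole brain (0.39). It was 0.38 for all glia minus neurons (0.27), −1.01 for all glia minus whole brain (0.31) and −1.15 for neurons minus whole brain (0.27). The members thus lay above the median of all probe sets between the sorts and below it against whole brain. For all glia minus neurons this did not hold for the 36 subunit probe sets alone, with a median of 0.22 where the 8 copies had 0.62. The median of the 44 negative controls was itself displaced by 0.10, 0.66, 1.18, 0.61, 1.12 and 0.50 in these 6 differences, taken in that order. Of the members, 36 exceeded the controls on all 20 arrays, 9 on some of them and 2 (RpL10Aa and RpS19b) on none of them. With the arrays quantile normalized once more, the median of all probe sets was 0.02, 0.14, 0.18, 0.10, 0.16 and 0.13, and that of the members 0.39, 0.98, −0.22, 0.43, −0.69 and −1.0, so each kept its sign. Under that scaling the members had 21 higher and 1 lower calls for surface glia minus neurons, against 9.08% and 10.7% of all probe sets. They had 2 and 1 for all glia minus neurons, against 2.39% and 2.39%, and 1 and 19 for all glia minus whole brain, against 10.3% and 10.3%. Without all glia replicate 4 and surface glia replicate 4 the members had 2 higher and 0 lower calls for surface glia minus all glia. Of all 18769 probe sets 538 were higher and 718 lower there. For surface glia minus neurons they had 12 and 1 (1543 and 2758 of all probe sets), and for surface glia minus whole brain 3 and 18 (5022 and 3569). For all glia minus neurons they had 1 and 1 (540 and 792), and for all glia minus whole brain 1 and 21 (2881 and 2637).

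**Figure D2:**
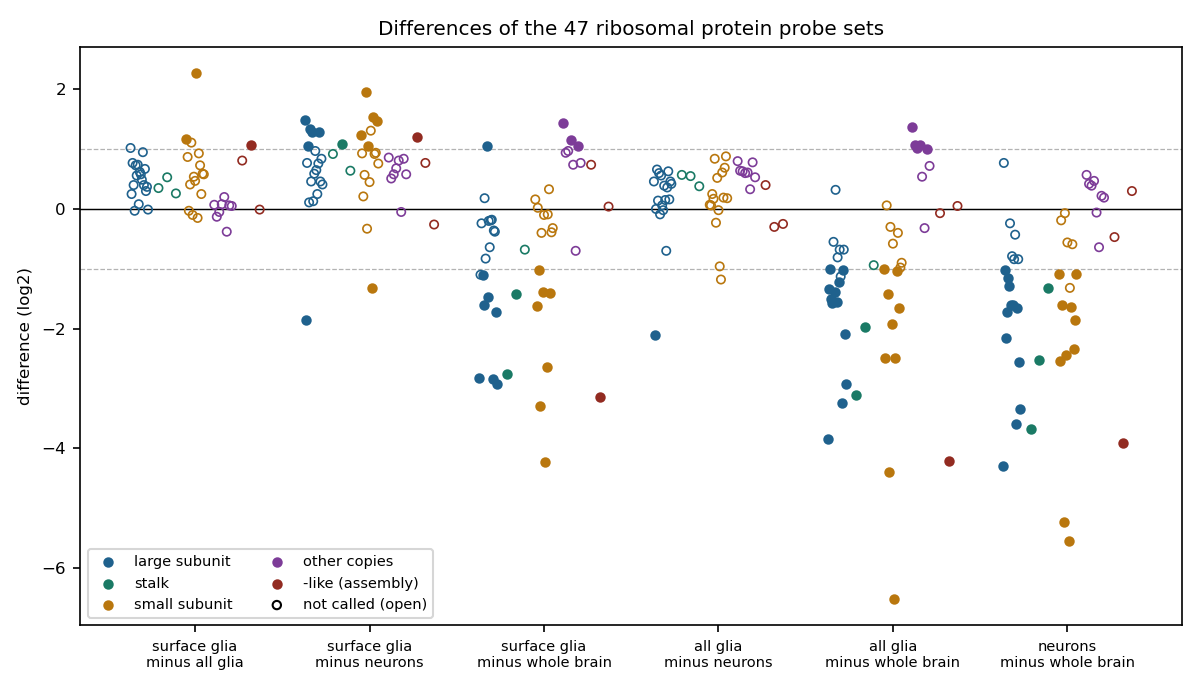
Difference (y axis, log2) of each of the 47 probe sets in the 6 comparisons, coloured by role. Filled points were called and open points were not, and dashed lines mark a difference of 1. Of the members, 26 are called lower in neurons than in whole brain and 12 are called higher in surface glia than in neurons.

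The large subunit had 7 of its 18 probe sets called lower in all 3 sorts than in whole brain, where 6.02% of all probe sets were, and 5 called higher in surface glia than in neurons, where 10.5% were. RpL32, a large subunit gene widely used in flies as a constant reference transcript, was at 10.09, 10.52, 11.00, 10.74 and 11.28 in surface glia, 10.45, 9.28, 9.37, 10.74 and 8.71 in all glia, 9.08, 9.89, 9.52, 8.83 and 8.91 in neurons and 13.54, 13.55, 13.55, 13.51 and 13.58 in whole brain. Every sorted array was below every whole-brain array, and surface glia did not overlap with neurons. RpL32 fell by 2.82 in surface glia (SE 0.33, limma adjusted p = 2.63e-06), by 3.84 in all glia (adjusted p = 8.03e-08) and by 4.30 in neurons (adjusted p = 1.15e-08), each against whole brain. The difference from neurons, a 19.7-fold one on the linear scale, is large for a gene used as a constant. In surface glia RpL32 was 1.48 higher than in neurons (SE 0.33, adjusted p = 0.00267), and 1.02 above all glia, which was not called (adjusted p = 0.0822). Without all glia replicate 4 that difference was 1.27 and was called (adjusted p = 0.0140).

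RpL23, a protein of the large subunit face that meets the small subunit, was at 10.28, 10.12, 11.00, 10.26 and 10.44 in surface glia, 9.85, 9.90, 10.22, 10.02 and 10.13 in all glia, 9.47, 9.83, 10.02, 9.04 and 9.96 in neurons and 13.26, 13.30, 13.30, 13.20 and 13.27 in whole brain. Its sorted arrays lay well under whole brain, and the 3 sorts lay close together. It fell by 2.85 in surface glia, 3.24 in all glia and 3.60 in neurons (SE 0.20 each, adjusted p = 5.51e-09, 1.17e-09 and 1.20e-10), while surface glia minus neurons was 0.76 and not called. RpL34a, one of 2 RpL34 copies of the fly, averaged 6.76 ± 0.46 in surface glia, 6.77 ± 0.26 in all glia, 6.35 ± 0.37 in neurons and 9.69 ± 0.12 in whole brain. Its differences from whole brain were −2.93, −2.92 and −3.34 in these 3 sorts, all called and with no overlap. RpL37A, a small zinc-binding protein, fell by 1.72 in surface glia, 2.09 in all glia and 2.56 in neurons (SE 0.27 each). RpL15 and RpL29 differed by almost equal amounts in each sort: RpL15 stood at −1.61, −1.58 and −1.72 against whole brain, and RpL29 at −1.47, −1.55 and −1.60, in surface glia, all glia and neurons, all called. For both the 3 sorts overlapped, and no comparison between sorts was called.

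RpL10Ab, RpL17 and RpL39 were called higher in surface glia than in neurons, where 10.5% of all probe sets were. RpL10Ab, which forms the mobile L1 stalk, was at 11.31, 11.55, 11.73, 12.09 and 11.72 in surface glia, 11.21, 10.36, 11.36, 11.13 and 11.01 in all glia, 10.40, 10.45, 10.41, 10.47 and 10.21 in neurons and 12.06, 12.16, 11.98, 12.04 and 11.94 in whole brain. It was 1.29 higher in surface glia than in neurons (SE 0.19, adjusted p = 6.57e-05) and fell by 1.65 in neurons against whole brain (adjusted p = 2.22e-06). In surface glia it was 0.36 under whole brain, which was not called (adjusted p = 0.104). RpL17, at the exit of the tunnel that the new protein chain leaves by, averaged 9.82 ± 0.39 in surface glia, 9.09 ± 0.34 in all glia, 8.49 ± 0.18 in neurons and 9.64 ± 0.09 in whole brain. It was 1.33 higher in surface glia than in neurons (adjusted p = 9.48e-05), with no overlap, and 0.18 above whole brain, which was not called. RpL39, which lines that tunnel, was 1.06 higher in surface glia than in neurons (SE 0.20, adjusted p = 0.000803) and fell against whole brain by 1.10 in surface glia, 1.5 in all glia and 2.16 in neurons, the call in surface glia being lost after a second quantile normalization. The call of RpL39 between surface glia and neurons was lost without surface glia replicate 3, without neurons replicate 5, and when each array was centred on its median.

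RpL36A, RpL28 and RpL37-1 were called lower than whole brain in all glia and neurons and missed the call in surface glia. RpL36A, which touches the tRNA exit site, was at 12.67 ± 0.06 in surface glia, 12.09 ± 0.23 in all glia, 11.70 ± 0.23 in neurons and 13.31 ± 0.04 in whole brain. Its surface glia arrays lay between those of neurons and whole brain without overlap, and the difference from neurons was 0.97 (adjusted p = 0.000154), just under the minimum of 1. RpL28 fell by 1.01 in all glia and 1.02 in neurons against whole brain, with its lowest all glia level, 10.72, in replicate 4. Without that array its call in all glia was lost, as it was with array weights and after a second quantile normalization. Its call in neurons was lost without neurons replicate 4, with arrays centred on their medians and after a second quantile normalization, which also ended the call of RpL36A in all glia. RpL37-1 fell by 1.39 in all glia and 1.29 in neurons. RpL41, a very small basic peptide, was at 13.92 ± 0.18 in surface glia, 13.62 ± 0.39 in all glia, 13.46 ± 0.37 in neurons and 14.29 ± 0.01 in whole brain, near the top of the range that each array can show. It was not called in any comparison. RpL27 and the ubiquitin fusion gene RpL40 were not called in any comparison either, with differences of −0.20 and −0.19 for surface glia minus whole brain.

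All 3 stalk genes were called lower in neurons than in whole brain, where 9.85% of all probe sets were. RpLP2 was at 7.96, 7.86, 7.66, 8.72 and 9.53 in surface glia, 8.06, 7.62, 7.84, 8.45 and 8.01 in all glia, 7.43, 7.45, 7.45, 7.29 and 7.50 in neurons and 11.00, 11.13, 11.15, 11.17 and 11.07 in whole brain. The sorts stayed under whole brain by more than a log2 unit on every array. RpLP2 fell by 2.76 in surface glia, 3.11 in all glia and 3.68 in neurons (SE 0.27 each, adjusted p = 3.47e-07, 9.36e-08 and 5.91e-09). RpLP1, its partner in the stalk, had differences of −1.43, −1.97 and −2.52 in the same 3 sorts, all called, and was 1.08 higher in surface glia than in neurons (SE 0.22, adjusted p = 0.00133). That call was lost without surface glia replicate 3, where RpLP1 stood at 12.01, and when arrays were centred on their medians. RpLP0, the base on which the stalk is built, fell by 1.32 in neurons (SE 0.15, adjusted p = 1.40e-06), and differed by −0.68 in surface glia and −0.94 in all glia, under the minimum of 1. For all 3 genes the means ran in the order whole brain, surface glia, all glia, neurons.

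The small subunit had 6 of 15 probe sets called lower in all 3 sorts than in whole brain, against 6.02% of all probe sets, and 5 called higher in surface glia than in neurons, against 10.5%. RpS18, a protein of the head of the small subunit that bridges to the large subunit, was at 9.74, 9.06, 10.80, 9.56 and 10.19 in surface glia, 9.02, 8.66, 8.89, 7.35 and 9.87 in all glia, 8.30, 7.71, 8.27, 7.35 and 7.95 in neurons and 13.11, 13.18, 13.24, 13.08 and 13.19 in whole brain. Whole brain stood alone at the top, surface glia lay above neurons without overlap, and all glia overlapped with both other sorts. RpS18 fell by 3.29 in surface glia (SE 0.36, adjusted p = 1.43e-06), 4.40 in all glia (adjusted p = 5.13e-08) and 5.24 in neurons (adjusted p = 2.53e-09) against whole brain. It was 1.95 higher in surface glia than in neurons (adjusted p = 0.000714), more than any other member in that comparison. Surface glia minus all glia was 1.11 (adjusted p = 0.0848) and all glia minus neurons 0.84 (adjusted p = 0.0994), neither called. Without all glia replicate 4, at 7.35, all glia minus neurons was 1.19 and was called (adjusted p = 0.0231).

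RpS12, RpS21 and RpS15 were also higher in surface glia than in neurons. RpS12, known in flies for its part in the competition between cells with and without Minute mutations, was at 11.59, 11.39, 11.49, 11.23 and 11.60 in surface glia, 11.02, 10.20, 11.17, 10.34 and 9.91 in all glia, 9.97, 9.86, 10.85, 9.47 and 9.43 in neurons and 11.53, 11.36, 11.53, 11.79 and 11.56 in whole brain. Surface glia overlapped with whole brain and stood above both other sorts. RpS12 was 1.54 higher in surface glia than in neurons (SE 0.27, adjusted p = 0.000337), and fell by 1.64 in neurons and 1.03 in all glia against whole brain. The call in all glia was lost without all glia replicate 2, 4 or 5, without whole brain replicate 4, with array weights and after a second quantile normalization. RpS21, a small protein of the small subunit, averaged 10.01 ± 0.33 in surface glia, 8.83 ± 0.56 in all glia, 8.76 ± 0.38 in neurons and 9.85 ± 0.18 in whole brain. It was called higher in surface glia against both other sorts, by 1.17 against all glia (SE 0.25, adjusted p = 0.00908) and 1.24 against neurons (adjusted p = 0.00141), and did not overlap with either. The call against all glia was lost without all glia replicate 4, whose level was 7.99, with array weights and in a fit of the 2 groups alone. RpS15, which reaches towards the decoding site, was 1.06 higher in surface glia than in neurons (adjusted p = 0.000619), and fell against whole brain by 1.39 in surface glia, 1.93 in all glia and 2.45 in neurons. The call against neurons was lost without surface glia replicate 2 or 3 or without neurons replicate 4, and with arrays centred on their medians.

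RpS26 and RpS27A were called lower in each sort than in whole brain, RpS20 in neurons and RpS28b in none. RpS26, which contacts the messenger RNA at its exit, fell by 1.41 in surface glia, 1.66 in all glia and 2.34 in neurons (SE 0.17 each), with no overlap with whole brain. RpS27A, made as a ubiquitin fusion, had differences of −1.02, −1.43 and −1.60 in the same sorts, all called. Its call in surface glia was lost without surface glia replicate 5 and after a second quantile normalization. RpS20, of the head of the small subunit, fell by 1.08 in neurons against whole brain and was called in no other comparison, with −0.32 in surface glia and −0.90 in all glia. That call was lost after a second quantile normalization and with arrays centred on their medians. RpS28b, which lies at the messenger RNA exit, was at 12.29, 12.85, 12.68, 12.90 and 12.66 in surface glia, 12.80, 12.48, 12.69, 13.06 and 12.51 in all glia, 12.50, 12.54, 12.67, 12.35 and 12.25 in neurons and 12.66, 12.66, 12.65, 12.67 and 12.62 in whole brain. All 4 groups of RpS28b overlapped, and its 6 differences lay between −0.19 and 0.25 with an SE of 0.16. The differences within the small subunit thus spread widely, with RpS18 at −5.24 and RpS28b at −0.19 for neurons minus whole brain.

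Probe sets of one gene disagreed for RpS29, RpL3, RpS7 and RpS30. RpS29, a small zinc-binding protein of the small subunit head, was at 6.24, 9.97, 8.06, 8.54 and 10.03 in surface glia, 7.13, 5.20, 5.47, 5.25 and 8.42 in all glia, 6.98, 7.34, 8.28, 6.93 and 6.76 in neurons and 12.67, 12.77, 12.88, 12.85 and 12.88 in whole brain on probe set 1626693_at. The sorts were far lower than whole brain, without overlap, and more scattered. On this probe set RpS29 fell by 4.24 in surface glia (SE 0.65, adjusted p = 3.41e-05), 6.52 in all glia (adjusted p = 5.15e-07) and 5.55 in neurons (adjusted p = 2.83e-06) against whole brain, the largest falls of any member in each case. On probe set 1629867_a_at RpS29 was at 12.49, 12.73, 12.57, 12.87 and 12.63 in surface glia, 12.23, 11.71, 12.03, 11.69 and 11.98 in all glia, 11.99, 11.70, 11.82, 11.62 and 11.55 in neurons and 12.32, 12.23, 12.30, 12.47 and 12.30 in whole brain. There the groups differed by less than a log2 unit, at 0.33 for surface glia, −0.40 for all glia and −0.59 for neurons against whole brain, and none was called. The third probe set of RpS29, 1625248_at, exceeded the controls on 0 of 5 surface glia arrays, 1 of all glia, 1 of neurons and 4 of whole brain, and was not called. The 3 probe sets therefore give no single value for RpS29. The higher level of 1626693_at in surface glia than in all glia, 2.27 (SE 0.65, adjusted p = 0.0452), overlapped between groups. It was lost in 21 of 27 alternatives, among them a fit of those 2 groups alone (adjusted p = 0.372).

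RpL3 encodes a protein beside the site where amino acids are joined. On probe set 1630270_s_at it was at 12.20, 12.27, 12.82, 12.56 and 12.30 in surface glia, 11.43, 11.52, 11.98, 11.99 and 11.55 in all glia, 11.15, 11.13, 11.15, 11.22 and 11.03 in neurons and 11.54, 11.26, 11.22, 11.51 and 11.34 in whole brain. Surface glia were highest and overlapped with no other group. RpL3 was 1.29 higher in surface glia than in neurons (SE 0.17, adjusted p = 1.74e-05) and 1.06 higher than in whole brain (adjusted p = 5.05e-05), and no other subunit probe set was called higher in any of the 3 sorts than in whole brain. The call against whole brain was lost without surface glia replicate 3. On probe set 1625889_at RpL3 differed the other way, at 6.17, 7.35, 4.93, 5.85 and 4.58 in surface glia, 7.25, 4.44, 5.55, 5.60 and 4.81 in all glia, 7.62, 6.97, 8.30, 7.24 and 8.07 in neurons and 7.14, 6.85, 6.71, 6.78 and 6.88 in whole brain. It fell by 1.86 in surface glia (SE 0.49, adjusted p = 0.00700) and 2.11 in all glia (adjusted p = 0.0113) against neurons, although single arrays overlapped and only 2 of 5 arrays of each glial sort exceeded the controls. The third probe set of RpL3, 1634685_at, was not called and ranged from 5.54 to 10.78 in surface glia.

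RpS7, of the body of the small subunit, showed the same kind of split. On probe set 1638615_s_at it averaged 12.73 ± 0.21 in surface glia, 12.15 ± 0.26 in all glia, 11.26 ± 0.44 in neurons and 13.13 ± 0.05 in whole brain. It was 1.47 higher in surface glia than in neurons (SE 0.20, adjusted p = 2.94e-05) and fell by 1.86 in neurons against whole brain. On probe set 1627181_at RpS7 was at 5.40, 6.66, 4.64, 6.52 and 7.73 in surface glia, 4.76, 6.34, 7.70, 5.89 and 7.01 in all glia, 8.17, 7.65, 7.54, 7.49 and 6.75 in neurons and 8.49, 8.86, 8.80, 8.44 and 9.59 in whole brain. Here the glial sorts were lowest: it fell by 2.65 in surface glia and 2.50 in all glia against whole brain (SE 0.53 each, adjusted p = 0.000304 and 0.000684), and by 1.33 in surface glia against neurons (adjusted p = 0.0437). The fall against neurons was lost without surface glia replicate 1, 3 or 4, without neurons replicate 1, 2, 3 or 4, and without whole brain replicate 1, 2, 3 or 4. That call was lost too after a second quantile normalization, with array weights and in a fit of the 2 groups alone. Without both all glia replicate 4 and surface glia replicate 4 it was lost as well. Between surface glia and neurons the 2 probe sets of RpS7 were called in opposite directions, as were 2 of the 3 of RpL3. RpS30, made as a fusion to a ubiquitin-like protein, had differences from whole brain of −1.63 in surface glia, −2.50 in all glia and −2.55 in neurons on 1623997_s_at (SE 0.26 each), all called. Its other probe set, 1625943_at, exceeded the controls only on 4 whole-brain arrays.

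**Figure D3:**
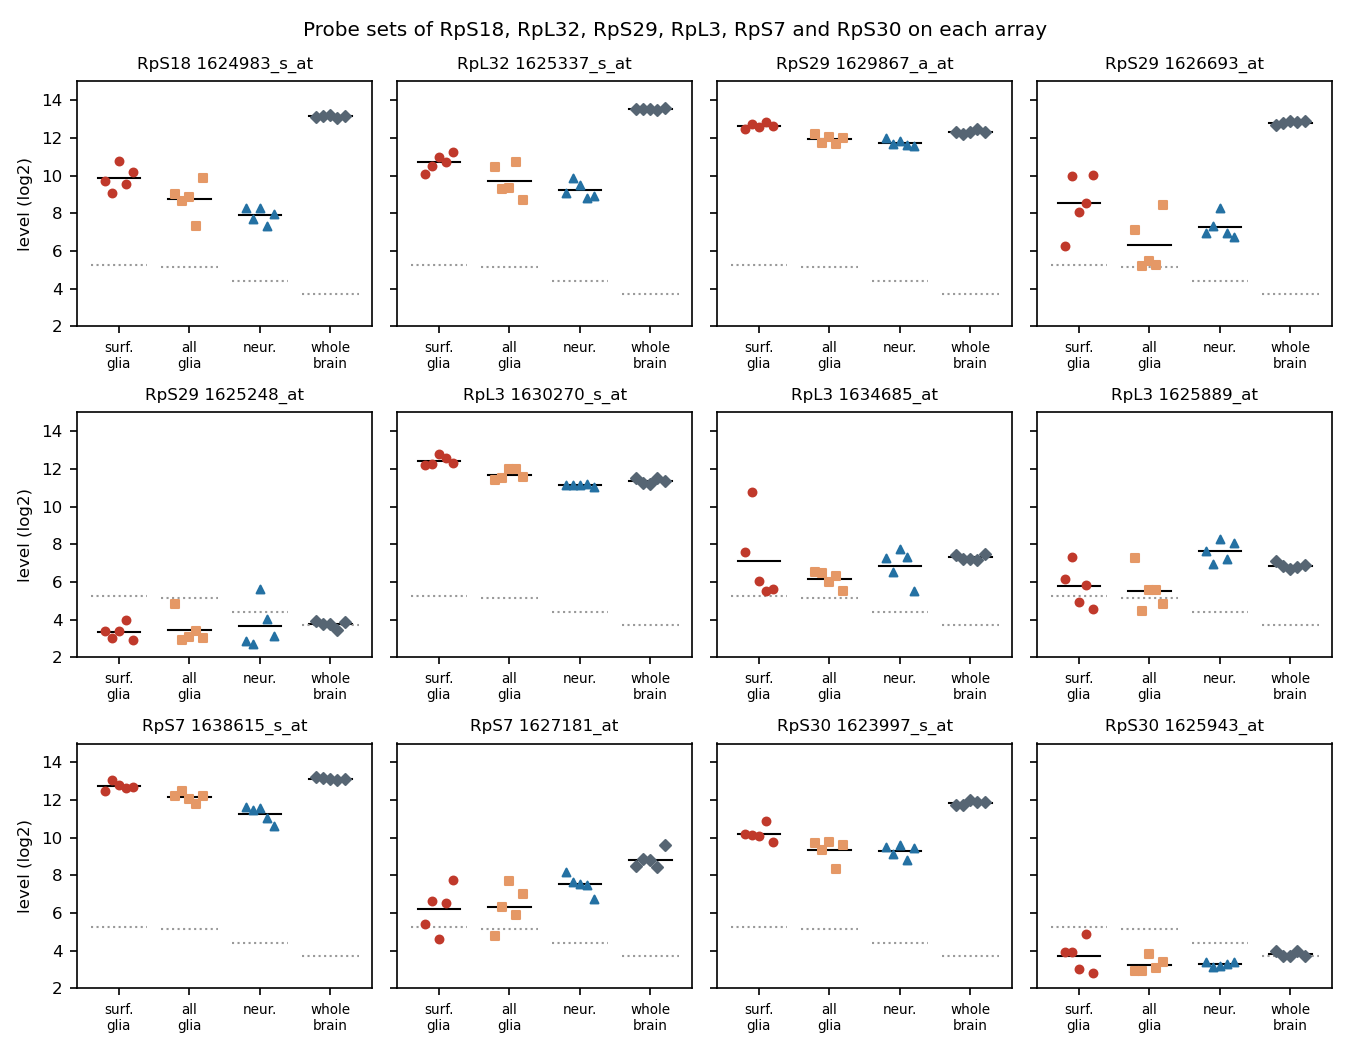
Level on each array (points, log2) of the probe sets of RpS18, RpL32, RpS29, RpL3, RpS7 and RpS30 in surface glia, all glia, neurons and whole brain. Black lines are group means and dotted lines the mean 95th percentile of 44 negative controls. RpS29 differs by 4.24 to 6.52 between the sorts and whole brain on 1626693_at and by less than 1 on 1629867_a_at.

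The members were also set apart by the kind of probe set, as its name ending gives it. Among subunit probe sets the median for neurons minus whole brain was −1.30 over 18 that end in _at, −2.05 over 4 that end in _a_at and −1.68 over 14 that end in _s_at, an ending for probes that can bind transcripts of more than one gene. For surface glia minus neurons these medians were 0.62, 0.99 and 1.09. In the median, each kind thus gave lower values in neurons than in surface glia and whole brain. Across the 36 subunit probe sets, which share their arrays, the rank correlation of the difference with the mean level over all arrays was 0.14 for surface glia minus neurons and 0.07 for neurons minus whole brain, given as a description.

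Second copies of ribosomal protein genes were low in each group, and several of them are known in flies for expression in the germ line. Their median level over the 8 probe sets was 5.44 in surface glia, 5.48 in all glia, 4.89 in neurons and 4.50 in whole brain. None of the 8 was called lower in a sort than in whole brain, and at an unadjusted p under 0.05 limma gave 0 lower in each sort, where 24.4% of all probe sets were lower in surface glia, 20.1% in all glia and 15.6% in neurons. The background averaged 5.23 in surface glia, 5.15 in all glia and 4.39 in neurons, so several copies had little room to fall. The absence of falls is therefore no contrast with the subunit genes. RpS28a, a copy of RpS28b, was at 5.85, 6.42, 6.34, 7.36 and 6.64 in surface glia, 6.14, 6.30, 6.04, 7.46 and 6.33 in all glia, 5.49, 5.73, 5.41, 5.34 and 6.32 in neurons and 4.74, 5.00, 4.84, 5.43 and 5.42 in whole brain. Both glial sorts were above whole brain without overlap, by 1.44 in surface glia and 1.37 in all glia (SE 0.30 each, adjusted p = 0.000442 and 0.000900). These differences are close to the 1.18 and 1.12 by which the median of the negative controls was displaced in the same comparisons.

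The other calls among the copies concerned probe sets that did not exceed the 44 controls in the glial sorts. RpL10Aa, a copy of RpL10Ab, averaged 4.40 ± 0.51 in surface glia, 4.34 ± 0.85 in all glia, 3.56 ± 0.25 in neurons and 3.33 ± 0.21 in whole brain. RpS19b, the second RpS19 gene, averaged 4.06 ± 0.46, 3.98 ± 0.81, 3.38 ± 0.07 and 2.91 ± 0.09 in the same groups. Both were within the negative controls in every group, so that their calls against whole brain, 1.06 and 1.15 in surface glia and 1.01 and 1.07 in all glia, compare values that are not above background. RpL22-like, a relative of RpL22, and RpS28-like, a relative of RpS28b, were called higher in all glia than in whole brain, by 1.02 and 1.07, and were within the controls in both glial sorts. Against another set of 50 controls, RpL22-like exceeded them on 3 surface glia and 4 all glia arrays, RpS28-like on 3 and 5, and RpL10Aa on 0 and 1, with 2 whole-brain arrays. The call of RpL10Aa in surface glia was lost without surface glia replicate 4, with array weights and after a second quantile normalization, and that of RpS19b after the normalization. Without all glia replicate 4, 1 of the 5 calls among the copies in all glia held, that of RpS28a. The copy of RpL37-1, RpL37-2, was at 6.66 ± 0.54 in surface glia, 6.46 ± 0.43 in all glia, 5.85 ± 0.18 in neurons and 5.92 ± 0.17 in whole brain and was not called. RpS10a, one of 2 RpS10 genes, was above the controls on each array and was not called, with a difference of −0.70 for surface glia minus whole brain. Whether probe sets of a copy also bind its close relative was not tested.

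**Figure D4:**
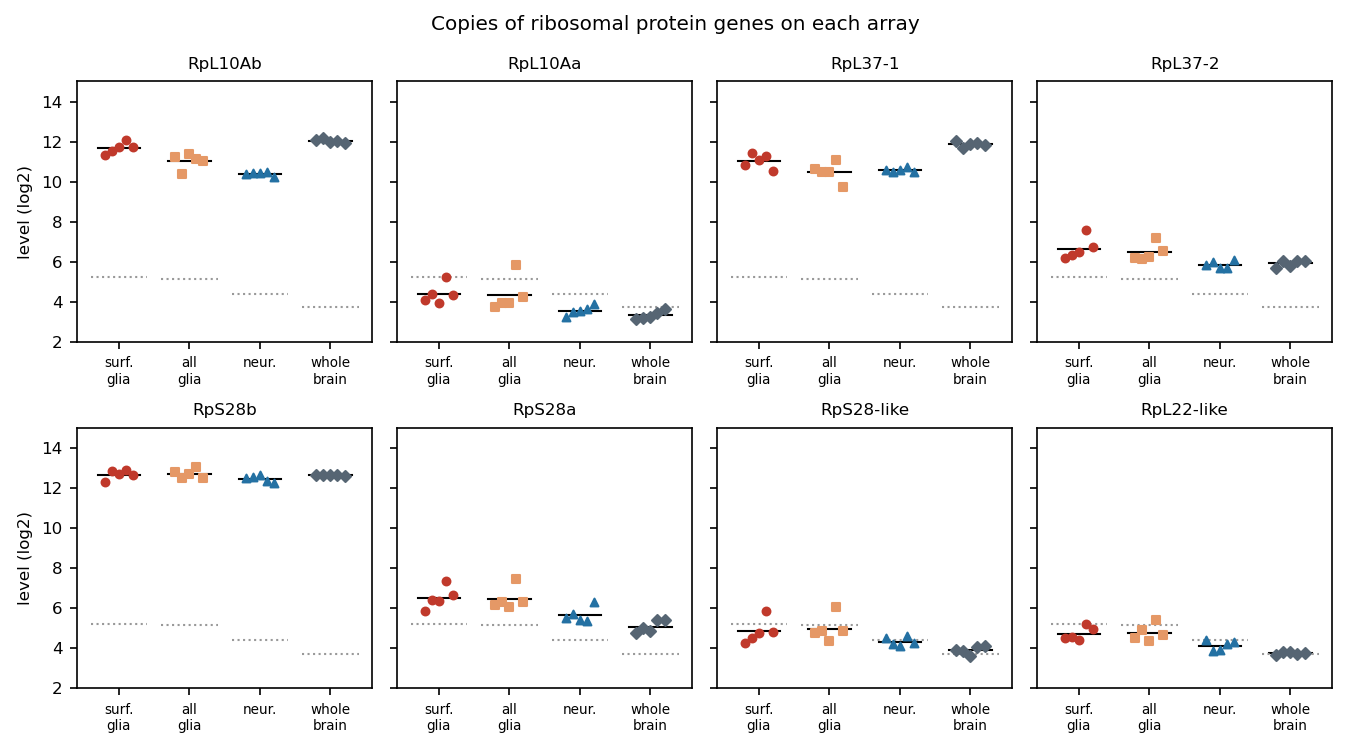
Level on each array (points, log2) of RpL10Ab, RpL37-1 and RpS28b and of related genes in surface glia, all glia, neurons and whole brain. Black lines are group means and dotted lines the mean 95th percentile of 44 negative controls. RpL10Aa lies within the controls in each group, while RpS28a is 1.44 higher in surface glia and 1.37 higher in all glia than whole brain.

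The 3 -like genes are named in the annotation after ribosomal proteins and are related to yeast proteins that help to build the large subunit and are not part of the finished ribosome. RpL24-like was at 8.72, 7.63, 8.53, 8.90 and 8.21 in surface glia, 7.83, 7.25, 7.24, 6.71 and 7.62 in all glia, 7.71, 7.67, 7.86, 7.02 and 7.88 in neurons and 11.48, 11.71, 11.62, 11.48 and 11.45 in whole brain. Each sorted array was below each whole-brain array. RpL24-like fell by 3.15 in surface glia, 4.22 in all glia and 3.92 in neurons (SE 0.25 each, adjusted p = 2.29e-08, 6.62e-10 and 7.73e-10) against whole brain. It was 1.07 higher in surface glia than in all glia (adjusted p = 0.0149), a call between overlapping groups that was lost without all glia replicate 4, without surface glia replicate 1 or 4, with array weights and in a fit of the 2 groups alone. RpL7-like averaged 9.16 ± 0.95 in surface glia, 9.17 ± 0.60 in all glia, 9.42 ± 0.21 in neurons and 9.12 ± 0.17 in whole brain and was not called in any comparison. RpLP0-like was called higher in surface glia than in neurons by 1.21 (SE 0.46, adjusted p = 0.0377), with levels of 5.76, 6.47, 9.15, 5.98 and 7.23 in surface glia and 6.27, 5.69, 6.19, 5.49 and 4.91 in neurons. The groups overlapped, and without surface glia replicate 3, at 9.15, the call was lost. It was lost too without surface glia replicate 5 or neurons replicate 2, 4 or 5. A second quantile normalization, arrays centred on their medians and a fit of the 2 groups alone ended it as well.

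Since most subunit genes lie at high levels, they were set beside other probe sets at high levels. For each difference the probe sets were taken that had a mean of at least 10 over the 10 arrays of the other two groups, so that the groups compared had no part in the choice. For surface glia minus neurons there were 1667 such probe sets, 26 of them members, with a median of 0.88 over the members and −0.73 over the 1667. Of these members 9 were called higher (34.6%), and of the 1667 probe sets 124 were called higher (7.44%) and 553 lower (33.2%). Each of the 26 members had a positive difference, where 426 of the 1667 probe sets did. For neurons minus whole brain 23 members were among 1336 probe sets, with medians of −1.60 and 0.04. Of these members 17 were called lower (73.9%), and of the 1336 probe sets 194 (14.5%). For all glia minus whole brain the medians were −1.02 over 22 members and −0.23 over 1495 probe sets. Of these members 13 were called lower, and of the 1495 probe sets 210. For surface glia minus whole brain the medians were −0.39 over 21 members and −0.69 over 1619 probe sets. Of these members 7 were called lower (33.3%), and of the 1619 probe sets 514 (31.7%). At these levels the members thus did not lie below other probe sets for surface glia minus whole brain.

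**Figure D5:**
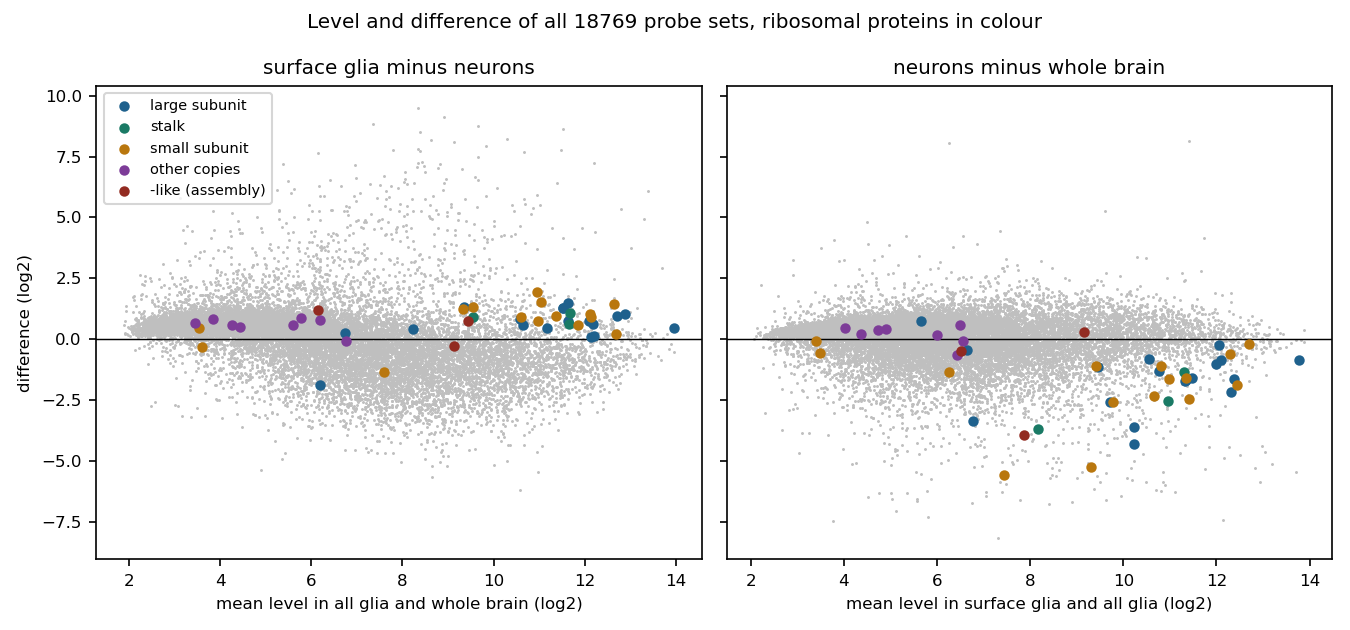
Difference (y axis, log2) against the mean level over the 10 arrays of the other two groups (x axis, log2) for all 18769 probe sets in grey, with ribosomal proteins coloured by role, for surface glia minus neurons (left) and neurons minus whole brain (right). At a mean of at least 10 all 26 members lie above 0 on the left, where the median of the 1667 probe sets is −0.73, and all 23 lie below 0 on the right, where the median of the 1336 probe sets is 0.04.

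Other genes of translation were set beside the ribosomal proteins, with 1 probe set a gene, the one with the highest mean over all arrays. The medians of the ribosomal proteins are over all 47 of their probe sets, so the 2 kinds of median are built differently. Over all probe sets 31.6% were called higher and 19.4% lower in surface glia than in whole brain. The shares were 24.7% and 14.8% in all glia and 3.79% and 9.85% in neurons. For surface glia minus neurons they were 10.5% and 15.0%. Of 69 mitochondrial ribosomal proteins, which build the separate ribosome of mitochondria, 33 fell and 1 rose in surface glia, 35 fell in all glia, and 20 fell and 1 rose in neurons, each against whole brain. Their medians were −1.01, −1.04 and −0.65. mRpS25 fell by 3.23 in surface glia, 3.15 in all glia and 3.25 in neurons (SE 0.37 each). Between surface glia and neurons 1 was higher and 5 lower, with a median of −0.37, where the cytosolic members had 0.77. Of 40 initiation factors 6 rose and 12 fell in surface glia against whole brain, 2 rose and 13 fell in all glia, and 10 fell in neurons. Among the rises in surface glia were those of eIF4E3, eIF4E7 and eIF3d2, which were within the controls in both groups. eIF3e, a subunit of the initiation factor that binds the small ribosomal subunit, fell by 2.60 in surface glia, 2.21 in all glia and 2.43 in neurons.

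Of 7 elongation and release factors 1 rose and 3 fell in surface glia, 4 fell in all glia and 3 fell in neurons, each against whole brain, with medians of −0.86, −1.47 and −1.30. Among those that fell in each sort was eEF1delta, at −1.74, −2.19 and −2.45, while between surface glia and neurons 1 of the 7 was called, upward, with a median of 0.31. That gene, eEF1gamma, a subunit of elongation factor 1, rose by 1.82 in surface glia (SE 0.19, adjusted p = 8.37e-07) and 1.41 in all glia (adjusted p = 6.31e-05) against neurons. It was at 11.37 ± 0.42 in surface glia, 10.96 ± 0.13 in all glia, 9.55 ± 0.22 in neurons and 10.09 ± 0.06 in whole brain. Against neurons, surface glia had 2 of 9 growth control genes called higher, Rack1 and the transcription factor gene foxo (by 3.17), with a median of −0.28 over the 9, below 0 where that of the ribosomal proteins was above it. Rack1, a protein bound to the small subunit, was at 10.72 ± 0.33 in surface glia, 9.77 ± 0.51 in all glia, 9.14 ± 0.27 in neurons and 11.05 ± 0.10 in whole brain. It was 1.58 higher in surface glia than in neurons (SE 0.23, adjusted p = 5.79e-05), and fell by 1.28 in all glia and 1.91 in neurons against whole brain. Of 16 cytosolic aminoacyl-tRNA synthetases 1 rose and 2 fell in surface glia against whole brain, and LeuRS, the leucine enzyme, fell by 1.5. Of 17 genes of ribosome biogenesis and RNA polymerase I, 1 was higher and 4 lower in surface glia than in neurons. Non1, a GTP-binding protein of large subunit assembly, rose by 1.43 there, and nclb, a nucleolar protein, fell by 2.80. The biogenesis list thus had a median of −0.42 for surface glia minus neurons, below 0, and the ribosomal proteins 0.77, above it.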

How the data were processed

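Per the submitters' processing notes, which name RMA, affy and limma without versions, the authors deposited 1 normalized log2 value per probe set and array, with 2 decimals. The log2 scale was taken from RMA and the range of the values. Precision is limited by having 5 arrays a group. Of 18952 probe sets 183 controls were left out and 18769 tested.

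Here limma 3.58.1 in R 4.3.3 fitted 1 mean per group over all 20 arrays with empirical Bayes, and p-values were adjusted by Benjamini-Hochberg in each comparison. The groups share 1 estimate of spread although glial sorts varied more. The 44 negative controls gave the background: a probe set was within the controls where it exceeded their 95th percentile on no array of a group. Symbols came from the platform annotation, in which 13646 probe sets have 1 symbol, 402 have several and 4721 have none. Chromosomes, lengths and synonyms came from the RefSeq gene table of the Release 6 assembly. No coordinates are given, since the build behind the annotation is not given in the sources used here.

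Members and lists were chosen with earlier results of these data known. The split at a mean of 10 in the groups outside a comparison was also chosen after seeing the data. The genes named were RpS18, RpL32 and RpS29, the 8 largest called rises and falls a comparison, genes with disagreeing probe sets, copies and probe sets within the controls, and from each list at most 3 called genes. Remaining members were added for completeness, except 1 second copy, which enters the counts and medians and is not reported here by name. The replicate number was tried as a block, beside other scalings, a filter on dim probe sets, array weights, a fit of 2 groups alone and leaving out arrays.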

Additional observations from a re-analysis of the deposited data

Results flagged for a closer look

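Each of the 47 probe sets was examined in each of the 4 groups for a value far from those of the other 4 arrays. In these 188 groups of values 11 single values stood apart. Chance marks about 1 in 20 such groups. All glia replicate 4 accounted for 4 of the 11. It was at 10.72 for RpL28, where the other all glia arrays were at 11.64 to 11.96, and above the others for 3 second copies, at 5.84 for RpL10Aa (others 3.75 to 4.22), 5.37 for RpS19b (3.42 to 3.97) and 7.46 for RpS28a (6.04 to 6.33). On this array the 95th percentile of the negative controls was 6.08, where it was 4.70 to 5.10 on the other all glia arrays.

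The other all glia values apart were RpS29 1625248_at at 4.81 in replicate 1 (others 2.93 to 3.41), RpS10a at 5.33 in replicate 3 (6.65 to 7.12) and RpL7-like at 8.13 in replicate 2 (9.21 to 9.58). In neurons they were RpL10Ab at 10.21 in replicate 5 (10.40 to 10.47) and RpL24-like at 7.02 in replicate 4 (7.67 to 7.88). In whole brain they were RpL27 at 11.18 in replicate 5 (11.01 to 11.04) and RpL39 at 13.74 in replicate 4 (13.58 to 13.61), where the gaps are small on a narrow range.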

How the results depend on the processing

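Of 94 called differences of members, 67 were called in each of the alternatives tried and 0 changed sign. The number of members called higher changed most. For surface glia minus all glia (3 higher) it was 0 with array weights and in a fit of the 2 groups alone, 10 with no minimum difference, and 1 to 5 when single arrays were left out (5 without all glia replicate 1, 1 without all glia replicate 4 or surface glia replicate 4). For surface glia minus neurons (12 higher, 2 lower) it was 21 higher after a second quantile normalization and 30 with no minimum, and the lower count was 1 after quantile normalization, with array weights, in the fit of 2 groups and without all glia replicate 4 and surface glia replicate 4. Leaving out single arrays gave 9 to 15 higher and 1 to 2 lower, with 1 lower without surface glia replicate 1, 3 or 4 or neurons replicate 1, 2, 3 or 4. For surface glia minus whole brain (4 higher) it was 2 under the filter on dim probe sets, 8 with no minimum and 3 to 6 without single arrays. For all glia minus neurons (0 higher, 1 lower) it was 2 higher after quantile normalization, 1 with array weights, 1 without all glia replicate 4 and surface glia replicate 4, 5 with no minimum, and 0 to 1 higher and 1 to 2 lower without single arrays (2 lower without all glia replicate 3). For all glia minus whole brain (5 higher) it was 1 after quantile normalization, 2 under the filter, 1 with array weights, 1 without both arrays and 1 to 5 without single arrays, with 1 without all glia replicate 4 and 3 without whole brain replicate 1 or 3. Calls over all 18769 probe sets moved too. With no minimum, 515 were higher for surface glia minus all glia (461 with it) and 5934 for surface glia minus neurons (1963). There were 8054 for surface glia minus whole brain (5936) and 1704 for all glia minus neurons (596). For surface glia minus all glia 272 were higher with array weights. For all glia minus whole brain (4631 higher) there were 1927 after quantile normalization, 3243 with array weights and 2881 without both arrays. The causes were not tested. The calls lower than whole brain kept within 1.5 times of their number, at 16 to 19 in surface glia, 21 to 24 in all glia and 24 to 26 in neurons without single arrays.

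With the replicate number as a block each count was that of the fit without it, for example 12 higher and 2 lower for surface glia minus neurons and 26 lower for neurons minus whole brain. Between surface glia and all glia the block ended the call of RpS29 1626693_at (adjusted p = 0.0584) and gave one for RpS18 (adjusted p = 0.0443). Deviations of arrays with the same replicate number correlated at −0.0194 to 0.378, over 0.1 in 2 of 30 pairs, and 6 of 20 arrays correlated best with their own number, so the numbers were not taken to pair the samples. Another set of 50 controls, chosen after seeing the data, placed 39 members above the controls on all 20 arrays, where the 44 controls placed 36. The search for promoter motifs was not run. Values within the controls carry no order, and values near the top of the array range may be compressed.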
